A study of Mus musculus with 6 samples.

Results

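The nuclear genome encodes most subunits of the mitochondrial respiratory chain, and 79 such genes were described here in the hippocampus of mice that overexpress the RNA-binding protein Rbfox1. They are all gene symbols of the deposited isoform table that begin with Nduf and a letter a, b, c, s or v before a number, with Uqcr, with Cox and a number from 4 to 8, or with Atp5, after 6 symbols marked as pseudogenes were left out. The choice used symbols and no measured value. Of the 79 genes among 53354 gene symbols, 37 belong by name to complex I, 8 to complex III, 18 to complex IV and 16 to complex V, and together they have 341 of the 133944 isoforms.

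Complex I passes electrons from NADH to ubiquinone, complex III passes them on to cytochrome c, and complex IV hands them to oxygen. These steps pump protons across the inner mitochondrial membrane, and complex V, the ATP synthase, makes ATP as the protons flow back through its membrane ring and turn its central stalk. Neurons draw most of their ATP from this chain, and the nuclear subunits are made in the cytosol, imported and assembled with the subunits that mitochondrial DNA encodes.

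RNA was measured by paired-end sequencing of stranded total RNA libraries from the hippocampus of 3 N-cre mice and 3 N-cre;Fox1 mice, all 3 months old and on the C57BL/6 background. N-cre mice are the controls and carry only the Cre recombinase under the nestin promoter. N-cre;Fox1 mice carry the same Cre and 1 copy of R26-Rbfox1, an Rbfox1 cDNA behind a CAG promoter and a loxP-flanked stop cassette at the Rosa26 locus, which Cre removes in cells of the nestin lineage. The transgene came from a single targeted allele made in 129/sv embryonic stem cells, and hippocampal tissue was used, so RNA of neurons, glia and vessels was measured together. The comparison addresses which transcripts change when Rbfox1, a factor that binds GCAUG in RNA and controls splicing and transcript stability, is raised.

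The libraries held 40463587 to 62141336 read pairs assigned to transcripts, and the 79 genes took 0.816% to 0.841% of them. The sum of the Rbfox1 isoforms did not separate the genotypes, at 279 ± 8.29 counts per 1000000 library counts (CPM) in the controls and 282 ± 22.1 with the transgene (SD, n = 3 each), so this sum does not check the labels. The isoform Rbfox1-202 was at 33.1, 33.6 and 35.5 CPM in N-cre and at 45.9, 40.9 and 44.4 in N-cre;Fox1 mice, without overlap, and did not pass the adjusted test over all isoforms (log2 fold change 0.36, SE 0.06, adjusted p = 0.624 in edgeR's quasi-likelihood test). Some groups of marker genes moved between libraries. N-cre replicate 3 and N-cre;Fox1 replicate 2 held choroid plexus transcripts, with Ttr at 2091 and 4775 CPM against 5.16 to 12.6 in the other 4 mice, and values without these 2 mice are given beside the results that they move. Astrocyte markers ranged over 2182 to 2283 CPM in controls, below the 2297 to 2523 of N-cre;Fox1 mice. Of the 7 markers, 3 (Gfap, Aqp4 and Gja1), or 42.9%, were higher in every N-cre;Fox1 mouse at an unadjusted p under 0.05. Over all genes tested, 3.89% were higher at such a p and 6.53% were higher without overlap. No astrocyte marker passed the adjusted threshold. Of the other 4 markers, Aldh1l1, S100b and Slc1a3 had log2 fold changes of -0.14, -0.02 and -0.02 and Aldoc 0.03, all with overlap, and Gfap, at 443 CPM in N-cre and 579 in N-cre;Fox1 mice on average, made up most of the difference in the sum. The summed markers of neurons, oligodendrocytes, microglia, endothelium, hippocampal fields and muscle overlapped between the genotypes, at 9737 to 10842 CPM for neurons and 601 to 708 for hippocampal fields. In whole tissue, fewer cells of a type and less RNA per cell cannot be told apart, and the part of these markers in the values below was not tested.

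The subunit isoform with the lowest p among those tested was one of Atp5c1 (ENSMUSG00000025781.14), which encodes the gamma subunit, the rotating shaft of the ATP synthase. The gene lies on the minus strand of chromosome 2 in mm10, and its exon 9 is 37 nt long, at chr2:10056770-10056806. This exon is in Atp5c1-203 (ENSMUST00000114897.8, 10 exons, 1166 nt) and in the minor Atp5c1-202, and it is skipped in Atp5c1-201 (ENSMUST00000026887.13, 9 exons, 1060 nt). As background, skipping of this exon in muscle was an early described effect of a Fox-1 protein. The exon and the skipped junction are shown because the exon decides where the reading frame ends. Capitals mark the stop codon, and the letters come from the GENCODE M21 transcripts.
Atp5c1 exon 9: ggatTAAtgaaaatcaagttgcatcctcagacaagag
Atp5c1-201 junction: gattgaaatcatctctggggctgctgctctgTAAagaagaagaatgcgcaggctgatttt
The junction sequence joins the last 30 bases of exon 8 (chr2:10058996-10059025) to the first 30 bases of the last exon (chr2:10056132-10056161). With the exon the stop codon falls inside it after 298 codons, and without the exon the frame ends at a stop codon at the start of the last exon after 297 codons, so the annotated proteins differ only at their C-terminal end. The GCATG motif, in these letters and on the transcript strand, occurs in neither transcript, and the introns beside the exon were not searched.

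Atp5c1-201 was at 13.5, 14.7 and 14.3 CPM in the 3 N-cre mice and at 24.99, 18.2 and 22.8 in the 3 N-cre;Fox1 mice. All 3 N-cre;Fox1 mice were above every N-cre mouse, and replicate 2 was the lowest of them. The log2 fold change was 0.64 (SE 0.12, 95% interval 0.34 to 0.93), with unadjusted p = 0.00180. The adjusted p = 0.693 over the 50563 isoforms tested in edgeR's quasi-likelihood fit, so it did not pass the threshold of 0.05. The DESeq2 Wald test put the same isoform past it, at an adjusted p of 0.00644, while the adjusted p lay between 0.404 and 1.00 in the other alternatives tried. Without the 2 mice with choroid plexus transcripts the log2 fold change was 0.76.

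The isoform with the exon, Atp5c1-203, differed in the other direction by a smaller factor. It was at 151, 152 and 146 CPM in N-cre and at 137, 139 and 141 in N-cre;Fox1 mice, again without overlap. Its log2 fold change was -0.11 (SE 0.03), and it did not pass the adjusted test (unadjusted p = 0.0149, adjusted p = 0.990 in edgeR). The sum of all Atp5c1 isoforms did not separate the genotypes, at 167 ± 2.99 CPM in N-cre against 164 ± 2.65 in N-cre;Fox1 mice (SD, n = 3 each) (log2 fold change -0.02, SE 0.03).

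Among the counts of the isoforms that either hold or skip exon 9, those without it made up 8.06%, 8.74% and 8.81% in the N-cre mice and 15.3%, 11.4% and 13.8% in the N-cre;Fox1 mice. The share lay above every control in 3 of 3 N-cre;Fox1 mice, with a gap of 2.62 percentage points between the nearest mice of the genotypes. Their Wilson 95% intervals, which cover counting error only and not how RSEM divided reads, ran from 7.56% to 9.52% over the controls and from 10.8% to 16.02% over the N-cre;Fox1 mice, on 6575 to 10291 counts per mouse. The means were 8.54% ± 0.412 (SD, n = 3) and 13.5% ± 1.94 (SD, n = 3), a ratio of 1.58. The exact two-sided permutation test gave p = 0.1, the smallest value that 3 against 3 mice allow. This share rests on the same counts as Atp5c1-201, which was taken up for its low p, so it is not separate support. Without the 2 mice with choroid plexus transcripts the difference was 6.13 percentage points against 4.96 in all mice. Atp5c1-201 and Atp5c1-203 share every other inner exon but differ in length at the 5′ end (80 against 163 nt of first exon) and at the 3′ end (146 against 132 nt of last exon), so the division of reads may also rest on those ends.

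**Figure D1:**
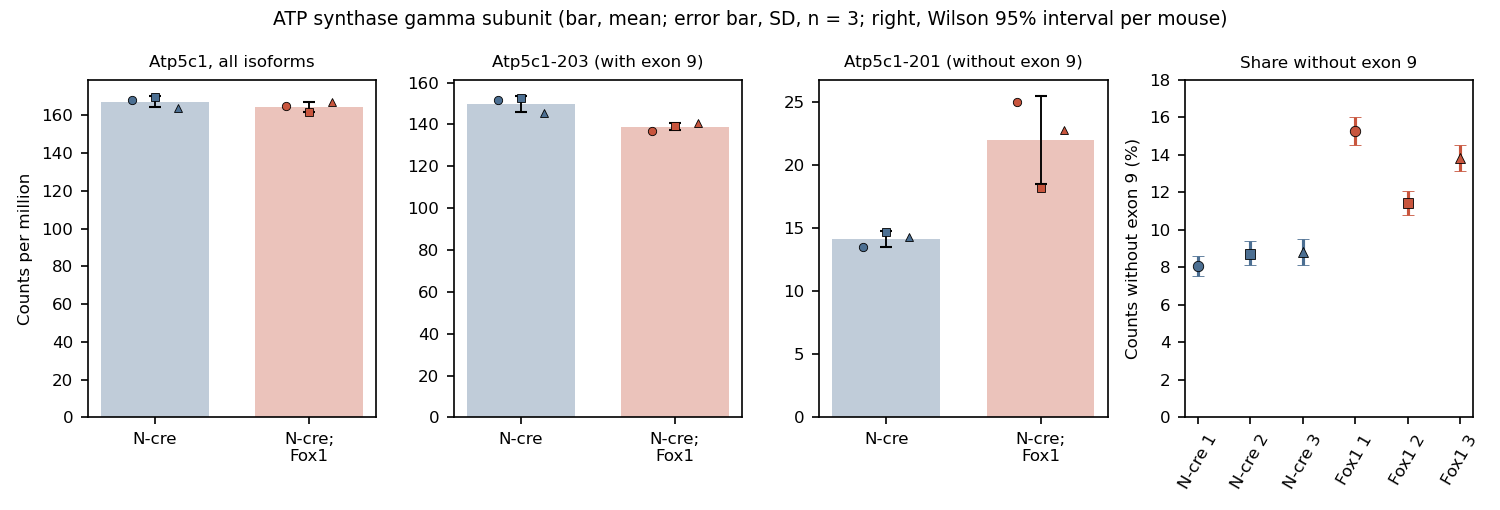
CPM of Atp5c1 and its 2 main isoforms in 3 N-cre (blue) and 3 N-cre;Fox1 (red) mice, with bars for the mean and error bars for the SD, and at the right the share of counts without exon 9 in each mouse with its Wilson 95% interval. The gene sum overlaps between the genotypes, while Atp5c1-201 and the share without exon 9, from 11.4% to 15.3% against 8.06% to 8.81%, do not.

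The other member isoforms gave few calls. The isoform test could miss changes, since on simulated counts edgeR called 44 of 200 isoforms changed 2-fold. Of the 341 isoforms, 259 had enough counts for the test and 0 passed the adjusted threshold in edgeR (0.00% of all isoforms did), with 7 at an unadjusted p under 0.05, or 2.70%, against 4.79% of all isoforms tested. Of the 7, 6 were higher and 1 lower, where 2.62% of all isoforms were higher and 2.17% lower. In 22 member isoforms the values of the genotypes were apart, or 8.49% against 11.5% of all, with 13 higher and 9 lower beside 5.85% and 5.67% over all isoforms. Limma-voom also called 0, with 6 at an unadjusted p under 0.05, and the DESeq2 Wald test called 1, Atp5c1-201, with 5. Of the 7, 4 had a mean count of at least 100, namely Atp5c1-201, Atp5c1-203, Atp5g1-201 and Atp5d-202, and the other 3 were Ndufb5-208 and Ndufb10-204, annotated with a retained intron, and Uqcrc1-206.

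Atp5g1 encodes the c subunit of the membrane ring, and Atp5g1-201 is its longer form, 4715 nt against 596 nt for Atp5g1-202 with the same coding length of 408 nt. Atp5g1-201 was at 38.9, 40.8 and 39.3 CPM in N-cre and at 43.5, 46.9 and 43.3 in N-cre;Fox1 mice. The genotypes did not overlap, and the log2 fold change was 0.17 (SE 0.05, unadjusted p = 0.0129, adjusted p = 0.987 in edgeR's test). Atp5d-202, a minor form of the delta subunit gene, was at 2.47, 1.75 and 1.26 CPM in N-cre and at 2.38, 3.25 and 4.09 in N-cre;Fox1 mice, which overlapped.

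For 28 members the second isoform held at least 5% of the counts, and in these the share of the leading isoform was compared between the genotypes. The share was lower in all 3 N-cre;Fox1 mice than in every control for 6 genes, or 21.4%, and higher for 0. Of 9446 genes with the same makeup, 11.2% did not overlap, 6.13% with a lower and 5.04% with a higher share in N-cre;Fox1 mice. For each of the 6 the exact two-sided permutation test gave p = 0.1, the smallest value it allows. The 6 genes were Atp5c1, Atp5g1, Ndufb2, Ndufb5, Ndufs4 and Ndufv3.

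Ndufb2 encodes an accessory subunit of the membrane arm of complex I and has 2 coding isoforms with the same 315 nt of coding length, Ndufb2-202 of 455 nt and Ndufb2-205 of 4371 nt. The short form held 45.4%, 45.4% and 45.4% of the counts in N-cre and 45.1%, 39.4% and 41.9% in N-cre;Fox1 mice. The controls had an SD of 0.012 percentage points (n = 3), and the highest N-cre;Fox1 mouse was close to them. In Ndufv3, a subunit of the NADH-binding part of complex I that is known in a short and a long form, the short Ndufv3-202 (312 nt of coding length) took 68.6%, 69.6% and 68.6% in N-cre and 67.4%, 68.2% and 66.6% in N-cre;Fox1 mice.

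In Ndufb5, another membrane arm subunit, the leading Ndufb5-204 took 62.4% ± 2.62 of the counts in N-cre against 59.0% ± 0.749 in N-cre;Fox1 mice (SD, n = 3 each). In Ndufs4, an accessory subunit of the peripheral arm, the coding Ndufs4-201 took 65.7% ± 0.935 (SD, n = 3) and 63.8% ± 0.624 (SD, n = 3), beside Ndufs4-204, which is annotated as a target of nonsense-mediated decay. In Atp5g1 the short Atp5g1-202 took 67.4% ± 1.33 (SD, n = 3) and 65.2% ± 0.552 (SD, n = 3). The difference was 3.39 percentage points in Ndufb5 and 1.85 in Ndufs4, where the median absolute difference over the 28 genes was 0.914 points. In the 4 mice without choroid plexus transcripts the leading share differed by -1.93 points in Ndufb2, -2.24 in Ndufb5 and -1.001 in Ndufs4, against -3.30, -3.39 and -1.85 in all mice.

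The leading isoform held under 80% of the counts in 16 members, and apart from Atp5g1, Ndufb2, Ndufb5, Ndufs4 and Ndufv3 their shares overlapped between the genotypes. These others were Atp5g3, Atp5j, Atp5j2, Atp5s, Cox6b2, Ndufa12, Ndufa5, Ndufc1, Ndufs1, Ndufv2 and Uqcrq. The most even division was in Ndufc1, where the leading Ndufc1-204 had 36.5% of the counts. Over all members, protein-coding isoforms held 96.3% ± 0.051 of the counts in N-cre against 96.2% ± 0.165 in N-cre;Fox1 mice (SD, n = 3 each), and isoforms with a retained intron held 1.87% ± 0.033 and 1.90% ± 0.076.

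At the level of whole genes, no subunit passed the test between the genotypes. In edgeR's test 77 of the 79 genes had enough counts, and 0 passed the adjusted threshold of 0.05, where 5 of all 18927 genes, or 0.0264%, did. One member, Ndufb2, had an unadjusted p under 0.05, with a higher level in N-cre;Fox1 mice, where 6.32% of all genes tested did, 3.89% higher and 2.43% lower. DESeq2 and limma-voom called 0 members as well, with 0 at an unadjusted p under 0.05 in each. The median log2 fold change was -0.001 over the members and 0.004 over all genes, with 37 members above 0 and 40 below.

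The 71 members with a mean level of at least 10 TPM, transcripts per 1000000 after scaling for length, allowed narrow limits. Their log2 fold changes lay between -0.06 and 0.09 with standard errors of 0.03 to 0.07. The 95% interval was within 0.2 on the log2 scale, a 1.15-fold change, on both sides for 70 of the 71 genes, and the exception was Atp5s at -0.12 to 0.21. Mice of the same genotype also lay close together for these genes, with a median coefficient of variation of 2.13% in N-cre and 2.04% in N-cre;Fox1 mice. It was 3.20% and 3.99% over the 10233 genes tested with a mean CPM of at least 10. These 2 sets were not matched by level.

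**Figure D2:**
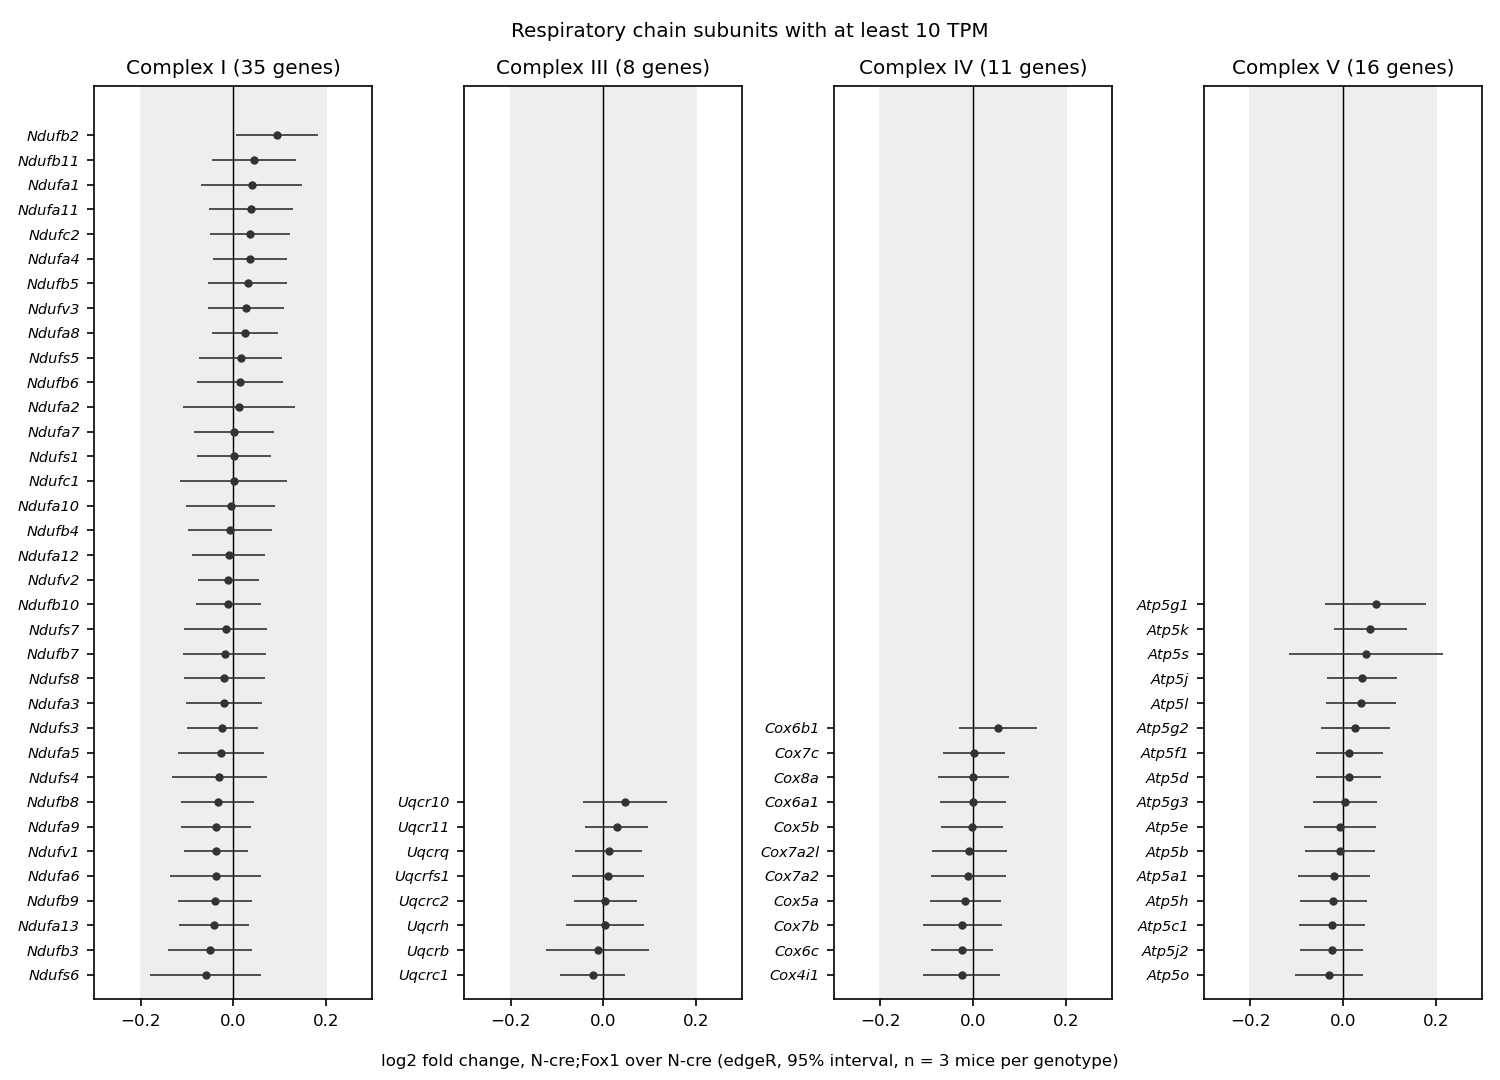
Log2 fold change of N-cre;Fox1 over N-cre mice with its 95% interval from edgeR (n = 3 mice per genotype) for 70 of the 71 subunit genes with at least 10 TPM, by complex, with the shaded band at 0.2 on either side of 0. The points lie between -0.06 and 0.09, and only Ndufb2 has an interval that does not hold 0.

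Summed by complex, the normalized counts of the genotypes overlapped in each case. Complex I summed to 2407 ± 26.1 CPM in N-cre against 2399 ± 11.7 in N-cre;Fox1 mice (SD, n = 3 each). Complex III summed to 842 ± 8.41 and 844 ± 7.85, complex IV to 1680 ± 10.9 and 1673 ± 26.97, and complex V to 3364 ± 33.4 and 3359 ± 20.7 (SD, n = 3 each). The means of the genotypes thus differed by -0.39% to 0.21%, which is less than the SD within a genotype in every complex. In the 4 mice without choroid plexus transcripts they differed by -0.607% in complex I, -0.795% in III, -0.779% in IV and -0.903% in V. Complex III (846 and 848 against 836 and 845 CPM) and V (3356 and 3400 against 3340 and 3355) then did not overlap, by narrow margins.

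**Figure D3:**
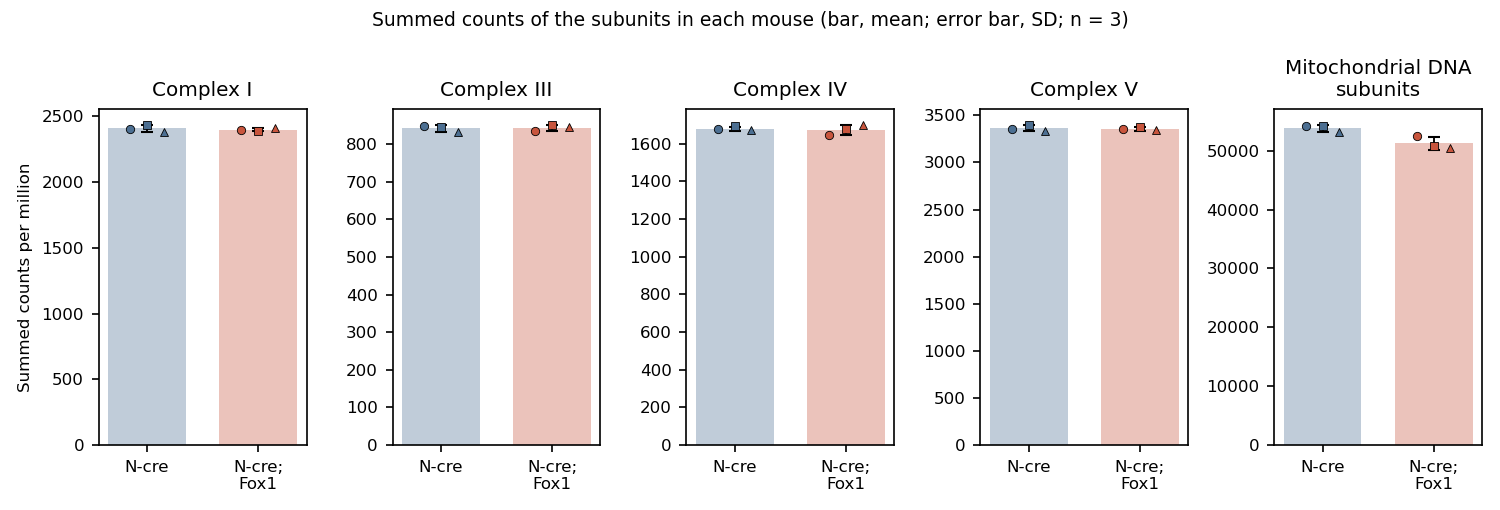
Summed counts (CPM) of the members of each complex and of the 13 subunits that mitochondrial DNA encodes, in 3 N-cre (blue) and 3 N-cre;Fox1 (red) mice, with bars for the mean and error bars for the SD. The nuclear sums overlap in all 4 complexes, and the mitochondrial sum is lower in the 3 N-cre;Fox1 mice, at 50544 to 52574 against 53147 to 54188.

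In complex I, the core subunits of the peripheral arm carry flavin and iron-sulphur clusters or bind ubiquinone. Ndufv1, which binds NADH and flavin, was at 144, 143 and 142 CPM in N-cre and at 138, 139 and 142 in N-cre;Fox1 mice. The genotypes did not overlap by a margin of under 1 CPM (141.8 against 141.5), and the log2 fold change was -0.04 (SE 0.03, adjusted p = 0.912 in edgeR's test). The core genes Ndufs1, Ndufs3, Ndufs7, Ndufs8 and Ndufv2 overlapped between the genotypes, with log2 fold changes between -0.02 and 0.00.

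Ndufb2 was at 47.5, 47.3 and 46.5 CPM in N-cre and at 47.9, 52.1 and 50.9 in N-cre;Fox1 mice. All N-cre;Fox1 mice were above the controls, with replicate 1 close to them. These CPM values are not scaled for length, and the 455 nt Ndufb2-202 held a lower share of the counts in N-cre;Fox1 mice. Scaled for length, Ndufb2 was at 150 ± 2.49 TPM (SD, n = 6), from 146 to 153 over all mice. The part of isoform lengths in the CPM difference was not tested. The log2 fold change was 0.09 (SE 0.04, unadjusted p = 0.0391, adjusted p = 0.783 in edgeR's test), and it was 0.06 with an unadjusted p of 0.215 without the 2 mice with choroid plexus transcripts. The lowest log2 fold change in complex I was that of Ndufs6, an accessory subunit, at -0.06 (SE 0.05, adjusted p = 0.926, edgeR), and its values overlapped.

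Over the members, the genotypes did not overlap in 4 of 77 genes, 2 higher (Ndufb2 and Ndufa4l2) and 2 lower (Ndufv1 and Cox6c), or 5.19%, against 12.3% of all genes tested, 6.53% higher and 5.73% lower. Cox6c, a small subunit of complex IV, was at 147, 147 and 149 CPM in N-cre and at 145, 146 and 145 in N-cre;Fox1 mice. The difference was small in size, with a log2 fold change of -0.02 (SE 0.03, adjusted p = 0.950 in edgeR's test). Ndufa4l2, a relative of Ndufa4 known to be induced by low oxygen, was at 1.81, 1.65 and 1.85 CPM in N-cre and at 2.12, 2.02 and 2.06 in N-cre;Fox1 mice (log2 fold change 0.22, SE 0.14, adjusted p = 0.855 in edgeR's test).

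In complex III the core proteins Uqcrc1 and Uqcrc2 and the Rieske iron-sulphur protein Uqcrfs1 had log2 fold changes of -0.02, 0.00 and 0.01. The highest log2 fold change was that of Uqcr10, a small subunit, at 61.1, 61.5 and 61.4 CPM in N-cre and 61.5, 67.3 and 61.2 in N-cre;Fox1 mice. N-cre;Fox1 replicate 2 alone was high, and the log2 fold change of 0.05 (SE 0.04) did not pass the test (adjusted p = 0.925, edgeR). Without that mouse the log2 fold change of Uqcr10 was 0.0003. The other members of the complex, Uqcrh, Uqcr11, Uqcrb and Uqcrq, lay between -0.01 and 0.03.

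In complex IV, Cox4i1 and Cox5a, 2 nuclear subunits that contact the catalytic core, had log2 fold changes of -0.02 each. Cox4i1 was at 315, 328 and 322 CPM in N-cre and at 304, 322 and 323 in N-cre;Fox1 mice, which overlapped. In complex V the catalytic alpha and beta subunits Atp5a1 and Atp5b had log2 fold changes of -0.02 and -0.01, and the central stalk subunits Atp5d and Atp5e 0.01 and -0.01. Atp5o, the subunit that links the stator to the catalytic head, had the lowest log2 fold change of the complex, at -0.03 (SE 0.03, adjusted p = 0.943 in edgeR's test).

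Atp5g1 had the highest log2 fold change of complex V. It was at 122, 124 and 130 CPM in N-cre and at 125, 142 and 128 in N-cre;Fox1 mice, with a log2 fold change of 0.07 (SE 0.05, adjusted p = 0.884 in edgeR's test). The genotypes overlapped, and the highest mouse of each genotype was the one with choroid plexus transcripts. The log2 fold change of Atp5g1 was 0.04 in the 4 mice without choroid plexus transcripts and 0.01 without N-cre;Fox1 replicate 2 alone.

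Compared per length, in TPM from the annotated isoform lengths, the members with at least 10 TPM spanned 51.2-fold, from 25.99 for Atp5s to 1332 for Atp5b. Atp5s, a factor related to the ATP synthase that is not a structural subunit of it, stood apart, since the next lowest member, Ndufb4, was at 95.9 TPM. In complex I the median gene was at 171 TPM, with Ndufa4 (567), Ndufb9 (373) and Ndufb8 (335) highest, and Ndufa4 is now assigned to complex IV by structure. In complex III the median was 284 TPM and Uqcrh (461), Uqcr11 (358) and Uqcr10 (331) were highest. In complex IV the median over the 11 members above 10 TPM was 413, and Cox8a (1250), Cox4i1 (1009) and Cox6a1 (772) led. In complex V the median was 338 TPM, and Atp5b at 1332 ± 16.6 (SD, n = 6) stood above Atp5a1 at 798 ± 9.28 (SD, n = 6) and Atp5g3 at 552 ± 8.08 (SD, n = 6), whose values did not overlap in any mouse. Full transcript lengths were used, which understates short transcripts.

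Several subunits exist as paralogs, of which one form is found in most tissues and the other mainly in lung, heart, skeletal muscle or testis. In each case the common form had the higher level in the hippocampus. Cox4i1 was at 1009 ± 29 (SD, n = 6) TPM and Cox4i2, a form known from lung, at 2.86 ± 0.403 (SD, n = 6), or 0.283% of the pair. The heart and muscle form Cox6a2 was at 6.74 ± 0.581 (SD, n = 6) TPM beside 772 ± 12.1 for Cox6a1, and Cox7a1 at 4.38 ± 1.25 (SD, n = 6) beside 294 ± 8.30 for Cox7a2. Cox7a2l, a further relative of these genes, was at 247 ± 6.04 (SD, n = 6).

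Cox6b2, known from testis, was at 8.49 ± 3.78 (SD, n = 6) TPM against 524 ± 18.1 for Cox6b1. Cox7b2 was at 0.673 ± 0.467 (SD, n = 6) TPM on 49 counts over the 6 mice, against 228 ± 8.11 for Cox7b, and its log2 fold change of 0.52 (SE 0.73) was the largest of complex IV (adjusted p = 0.959, edgeR), and it was -0.04 without N-cre replicate 1 and 1.81 without N-cre replicate 2. Cox8b, the heart and muscle form, was at 1.78 ± 1.73 (SD, n = 6) TPM on 84 counts, and Cox8c had 0 counts in all mice, which allows up to 0.0485 to 0.0739 CPM at 3 counts per library. Cox8a, the common form, was at 1250 ± 26.6 (SD, n = 6). Ndufa4l2 was at 4.88 ± 0.466 (SD, n = 6) beside 567 ± 18.9 for Ndufa4.

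The 3 genes for the c subunit of the ATP synthase ring, which encode the same mature protein behind different import sequences, were all expressed. Atp5g3 was at 552 ± 8.08 (SD, n = 6) TPM, Atp5g1 at 359 ± 21.4 (SD, n = 6) and Atp5g2 at 246 ± 6.00 (SD, n = 6). These make 47.7%, 31.1% and 21.2% of the sum, and the order was the same in all 6 mice with no overlap between genes. Reads in parts that these paralogs share could be divided differently by another counter.

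**Figure D4:**
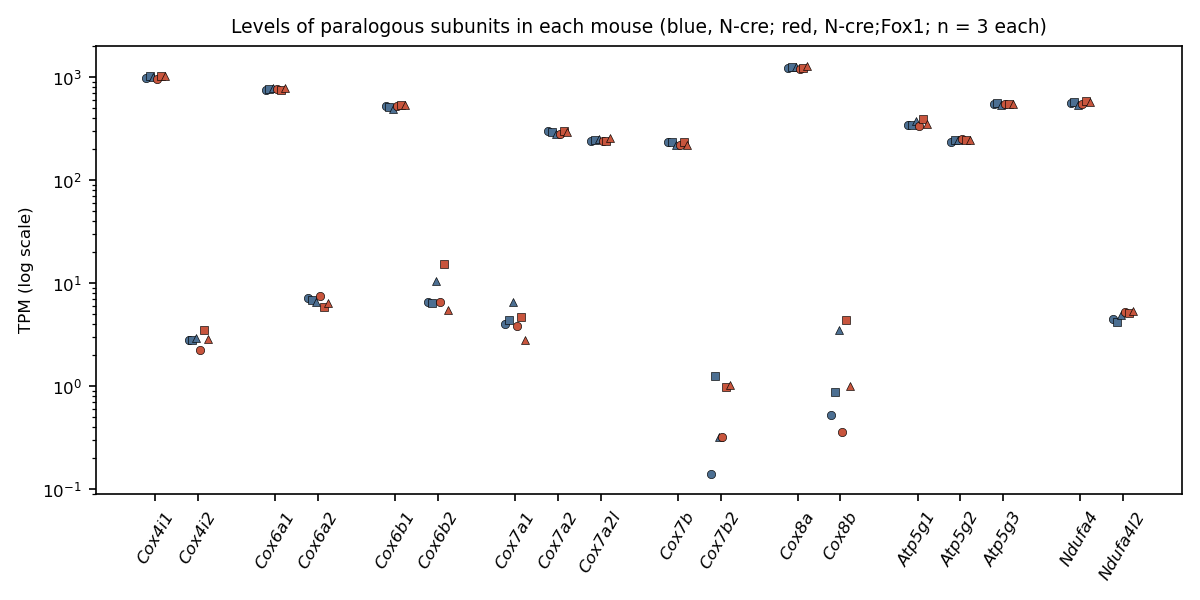
Level in TPM, on a log axis, of paralogous subunits in 3 N-cre (blue) and 3 N-cre;Fox1 (red) mice, with 1 point per mouse and Cox8c, at 0 in all mice, left out. The common forms lie between 220 and 1294 TPM and the tissue-restricted forms between 0.139 and 15.3 TPM.

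Some tissue-restricted forms, most clearly Cox8b and Cox6b2, followed the 2 mice with choroid plexus transcripts and not the genotype. Cox8b was at 0.542 CPM in N-cre replicate 3 and 0.673 in N-cre;Fox1 replicate 2, against 0.0557 to 0.152 in the other 4 mice. These Cox8b values rest on 3 to 39 counts per mouse. Cox6b2 was at 2.37 and 3.35 in these 2 mice against 1.20 to 1.43 in the others. Cox7a1 was at 1.11 and 0.776 against 0.474 to 0.735, a narrow margin on 28 to 45 counts per mouse. Its log2 fold change between the genotypes, -0.40 (SE 0.28, adjusted p = 0.889 in edgeR's test), was the lowest of complex IV. The value became -0.16 without N-cre replicate 3. Without both of these mice Cox7a1 was at 0.680 and 0.735 CPM in N-cre and at 0.650 and 0.474 in N-cre;Fox1 mice, still lower with the transgene. The log2 fold change of Cox6b2 was 0.22 in all mice and -0.10 in the 4 mice without choroid plexus transcripts.

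In all, 8 members were higher in both of these mice than in each of the other 4, the further ones being Cox4i2, Atp5g1, Ndufa1, Ndufa11 and Ndufb7. Among the 77 members tested the share was 9.09% (7 genes, without Cox8b), against 10.8% of all genes tested. The ratio of the mean of the 2 mice to that of the other 4 was 5.75 for Cox8b, 2.13 for Cox6b2 and 1.49 for Cox7a1, and 1.05 to 1.20 for the other 5. Cox6a2 did not follow the pattern, at 1.90 and 1.71 against 1.84 to 2.19 CPM. Nor did Cox7b2, at 0.0739 and 0.224 against 0.0324 to 0.290 CPM, or Ndufa4l2, at 1.85 and 2.02 against 1.65 to 2.12. The sum of 6 muscle markers did follow the pattern, at 17.6 and 17.5 CPM against 13.4 to 16.8. Most of this sum was Myh7, at 14.98 and 14.4 against 10.9 to 13.5 CPM. Tnnt2, at 1.70 and 2.23 against 1.52 to 2.88 CPM, and Myh6, at 0.641 and 0.776 against 0.647 to 0.964, did not follow the pattern. The muscle markers Actc1, Ckm and Mb were near 0, at 0.246 CPM or less in every mouse, and the part of muscle RNA in these values was not tested.

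**Figure D5:**
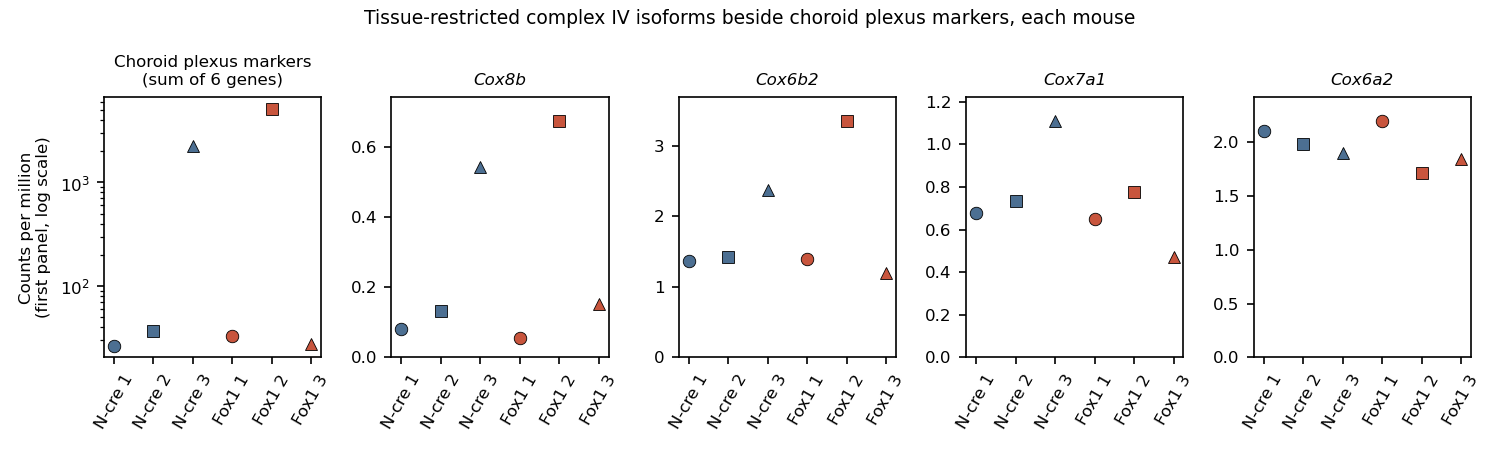
CPM in each mouse of 6 summed choroid plexus markers (log axis) and of 4 tissue-restricted complex IV subunits (linear axes), for N-cre (blue) and N-cre;Fox1 (red) replicates 1 to 3. Cox8b and Cox6b2 are high in N-cre replicate 3 and N-cre;Fox1 replicate 2, at 0.542 and 0.673 and at 2.37 and 3.35, and Cox6a2 is not.

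Other parts of the chain and its helpers were read from lists of genes. The 4 subunits of complex II, succinate dehydrogenase, summed to 625 ± 12.04 CPM in N-cre against 625 ± 3.33 in N-cre;Fox1 mice (SD, n = 3 each), with 0 of 4 at an unadjusted p under 0.05. Likewise below that p were 0 of 2 genes of cytochromes c and c1 (Cyc1 and Cycs), 0 of 15 assembly factors of complex I, 0 of 6 of complex III, 0 of 20 tested of complex IV and 0 of 3 of complex V. All 6 of complex III had a log2 fold change below 0, and their sum overlapped between the genotypes. Of these, 2 (33.3%), Uqcc2 and Uqcc3, were lower without overlap, against 5.73% of all genes tested. Among the other assembly factors, 1 of complex I was lower and 1 of complex IV higher without overlap. Of 8 subunits under other symbols, 1 had an unadjusted p under 0.05, Atpif1, the inhibitor of ATP hydrolysis by complex V, at 80.5, 81.1 and 78.4 CPM in N-cre and 76.4, 76.2 and 74.8 in N-cre;Fox1 mice (log2 fold change -0.08, SE 0.03, adjusted p = 0.781 in edgeR's test).

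The 13 subunits encoded by mitochondrial DNA summed to 53829 ± 591 CPM in N-cre against 51285 ± 1121 in N-cre;Fox1 mice (SD, n = 3 each), or 4.73% lower without overlap, where the nuclear members differed by -0.22%. Of the 13, 10 had a log2 fold change below 0 and 4, or 30.8%, an unadjusted p under 0.05 (mt-Nd3, mt-Nd4, mt-Nd5 and mt-Nd6), all lower. Of all genes tested, 6.32% had such a p, 2.43% lower. In 5 of the 13, or 38.5%, the genotypes did not overlap, all lower, against 12.3% of all genes, 5.73% lower. None of the 13 passed the adjusted threshold, mt-Nd6 having the lowest p (log2 fold change -0.19, SE 0.05, adjusted p = 0.591 in edgeR's test).

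Of 12 regulators of respiratory chain genes, 3 had an unadjusted p under 0.05, all higher and without overlap, and none passed the adjusted threshold. Among all genes tested, 3.89% were higher at an unadjusted p under 0.05 and 6.53% were higher without overlap. Pprc1, a coactivator of the PGC-1 family, was at 36.2, 32.8 and 33.8 CPM in N-cre and 38.2, 40.4 and 42.0 in N-cre;Fox1 mice, with a log2 fold change of 0.23 (SE 0.05, unadjusted p = 0.00125, adjusted p = 0.494 in edgeR's test). Yy1, a zinc finger transcription factor, had a log2 fold change of 0.12 (SE 0.04, adjusted p = 0.664) and Ppargc1b, a further coactivator, of 0.32 (SE 0.12, adjusted p = 0.765 in the same test). The median over the 12 was 0.01.

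The promoters of 65 members were in the RefSeq table (GRCm38.p6), as 70 windows of 300 bases from 250 before to 50 after a start site. Searched on both strands, the letters AAGATGGC of the YY1 site were in 10 of the 70 windows, 14.3% against 2.75% of 32851 promoters. The palindromic consensus of nuclear respiratory factor 1, in capitals in the Cox6a1 promoter, was in 5 of 70, 7.14% against 0.971%, and CCGGAAGT of ETS factors such as GABPA in 5 of 70, 7.14% against 3.89%. TATAAA was in 8 of 70, or 11.4%, against 13.6%. The median GC content of the windows was 57.2% for the members and 52.7% for all promoters. A promoter with each of the first 3 motifs is shown as an example, with the motif in capitals.
Cox6a1 (chr5:115348909-115349208, minus strand): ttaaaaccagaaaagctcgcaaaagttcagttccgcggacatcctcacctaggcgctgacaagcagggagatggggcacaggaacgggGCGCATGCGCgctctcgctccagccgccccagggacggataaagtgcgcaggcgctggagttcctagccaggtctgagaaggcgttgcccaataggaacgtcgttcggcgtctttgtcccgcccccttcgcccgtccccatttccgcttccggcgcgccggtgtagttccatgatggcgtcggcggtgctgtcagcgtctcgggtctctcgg
Atp5j (chr16:84834927-84835226, minus strand): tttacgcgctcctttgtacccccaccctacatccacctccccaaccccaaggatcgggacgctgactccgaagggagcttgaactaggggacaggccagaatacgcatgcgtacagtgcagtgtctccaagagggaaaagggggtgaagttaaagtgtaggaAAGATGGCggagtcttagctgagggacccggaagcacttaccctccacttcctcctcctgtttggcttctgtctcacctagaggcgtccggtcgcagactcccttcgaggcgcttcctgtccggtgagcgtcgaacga
Cox8a (chr19:7217567-7217866, minus strand): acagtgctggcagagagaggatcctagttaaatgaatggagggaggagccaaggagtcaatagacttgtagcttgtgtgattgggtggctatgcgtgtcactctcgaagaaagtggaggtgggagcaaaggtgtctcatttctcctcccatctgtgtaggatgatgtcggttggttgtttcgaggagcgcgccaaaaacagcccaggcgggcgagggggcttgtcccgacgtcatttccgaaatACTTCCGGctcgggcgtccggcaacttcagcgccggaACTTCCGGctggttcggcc
Cox6a1 holds the nuclear respiratory factor 1 letters, Atp5j, which encodes coupling factor 6 of the stator, the YY1 letters, and Cox8a the ETS letters at 2 places. The 3 genes overlapped between the genotypes, with log2 fold changes of 0.00 (SE 0.03), 0.04 (SE 0.03) and 0.00 (SE 0.03).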

How the data were processed

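Hippocampal RNA of 6 mice was measured. Adapters were removed by the authors (Cutadapt 1.18), alignment was by STAR 2.5.2b against mm10, and the authors estimated isoform abundance with RSEM 1.3.0 on GENCODE M16, and deposited the expected counts per isoform, which need not be whole and depend on how RSEM divided shared reads. Here the expected counts were rounded and summed by gene symbol. Genes and isoforms were tested with edgeR 4.0.16 (R 4.3.3; robust quasi-likelihood, genotype only, TMM, filterByExpr with minimum count 10 and minimum total 15), with Benjamini-Hochberg adjustment over all features tested and a threshold of 0.05. DESeq2 1.42.0 and limma 3.58.1 (voom) were alternatives. CPM values use TMM-scaled library sizes. TPM, lengths and coordinates come from GENCODE M21, in which 15 of the 341 member isoforms have another version. On simulated counts for 18927 genes, edgeR called 160 of 200 genes changed 2-fold (a log2 change of 1), with 4.8% of its 168 calls false, and for 50563 isoforms 44 of 200, with 22.8% of its 57 calls false. Isoform shares were compared by exact permutation. The smallest p for 3 against 3 mice is 0.1.

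The members, gene lists and motifs were chosen with earlier results of these data known. Genes were named if the unadjusted p was under 0.05, if they had the largest rise, largest fall or 3 highest levels of their complex, or as paralogs, core subunits, isoforms with an unadjusted p under 0.05 and a mean count of at least 100, or genes whose leading isoform had under 80% of the counts. Members whose genotypes do not overlap, those that follow the choroid plexus transcripts and the 3 promoters were picked after their values were seen. The labels give each sample its own animal tag. Depth was 40463587 to 62141336 read pairs, and intervals cover counting error and the spread between mice only. The values of 1 member are not reported here singly, and it is not drawn in the plot of fold changes.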

Additional observations from a re-analysis of the deposited data

How the results depend on the processing

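No member gene passed the adjusted threshold under any of the other normalizations, filters, tools, the rounding, or with any mouse left out, and over 815 values of 51 named members the lowest adjusted p was 0.331. Member isoforms called rose from 0 to 1 with the DESeq2 Wald test. Over all genes, the count of 5 became 46 with no filter beyond 1 count, 50 with DESeq2 and 2 to 29 with a mouse left out, the highest without N-cre;Fox1 replicate 1 and the lowest without N-cre replicate 2. It was 3 without N-cre replicate 3 and 3 without N-cre;Fox1 replicate 3. Over all isoforms, 0 became 10 with no filter, 6 with at least 10 counts in every mouse, 215 with DESeq2 and 1 without rounding. The cause was not tested.

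The replicate numbers did not pair the mice (correlations of same-numbered mice 0.495, -0.21 and -0.358), and with the replicate block 5 genes, 0 isoforms, 0 members and 0 member isoforms were called. Analyses without the 2 mice with choroid plexus transcripts were added after seeing the data. They called 7 genes and 0 members, and lowered the difference of each complex. That of complex III moved from 0.206% to -0.795% and that of complex V from -0.145% to -0.903%. The upper quartile scaling moved the median log2 fold change from -0.0012 to -0.0145 over the members and from 0.0038 to -0.0096 over all genes. For low genes such as Cox7b2 and Cox8b, depth limits what could be seen.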
